A study of Mus musculus with 12 samples.

Results

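The genes described are 10 of the integrated stress response and of the amino acid supply it serves: Atf4, Atf5, Ddit3, Trib3, Asns, Chac1, Slc3a2, Slc7a5, Mthfd2 and Aldh18a1. They were picked by gene symbol, but earlier results of these data were known when the genes were chosen. Of these, 9 are among the 12516 symbols of the deposited table, and Chac1, which encodes an enzyme that breaks down glutathione, is not listed there. RNA came from Oct4-positive germ cells sorted from single female embryos of embryonic day 13.5, on a C57BL/6 background, with 1 library per embryo. Every embryo, also in the control group, was Gulo-/- and so lacked the last enzyme of vitamin C synthesis. The supplied group holds 6 embryos of mothers given vitamin C at physiological levels. The withdrawn group holds 6 embryos of mothers from which it was withdrawn over the first 2 weeks of gestation. The comparison asks how the transcripts of germ cells depend on the vitamin C of the mother. The labels do not say which embryos are litter mates.

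In the integrated stress response, kinases that sense amino acid shortage, misfolded protein, viral RNA or heme loss phosphorylate the translation factor eIF2. General translation then falls, while the mRNA of Atf4 is translated more because of short upstream reading frames. Atf4 and its partners switch on genes that import amino acids, make asparagine, serine and proline, charge tRNAs and, under lasting stress, feed back on the response or favour cell death. Because Atf4 is controlled in large part at translation, its mRNA level is not a measure of its protein.

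Atf4 binds composite C/EBP-ATF elements, whose core is often written TGATGNAA. RefSeq windows of 300 bases (250 before to 50 after a transcription start, build GRCm38.p6) were found for 9 of the 10 genes; Slc7a5 has none. On either strand the core occurred in the windows of 3 of these 9 genes, Asns, Trib3 and Chac1, and in 3.97% of all 32851 windows. Below are the 250 bases upstream of Asns and of Slc3a2, shown because Asns carries the core near its start and Slc3a2, the member with the smallest p, does not carry it in this window. The stretch around the core of Trib3 is shown as the other measured member that holds it. Each is written 5′ to 3′ along the gene's strand, with the core in capitals. In Asns (chr6:7693210-7693459, minus strand) it starts 23 bases before the transcription start. In Trib3 (chr2:152344029-152344056, minus strand) it lies on the opposite strand, with its first printed base at position 15 of the transcript. The Slc3a2 stretch is chr19:8713898-8714147, minus strand. A match describes these letters only and is not a measured binding site.
Asns: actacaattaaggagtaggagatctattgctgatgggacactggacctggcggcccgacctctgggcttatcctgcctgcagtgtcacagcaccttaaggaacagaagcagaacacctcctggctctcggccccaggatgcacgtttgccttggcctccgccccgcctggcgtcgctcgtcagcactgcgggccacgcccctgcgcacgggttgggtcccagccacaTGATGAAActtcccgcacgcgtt
Slc3a2: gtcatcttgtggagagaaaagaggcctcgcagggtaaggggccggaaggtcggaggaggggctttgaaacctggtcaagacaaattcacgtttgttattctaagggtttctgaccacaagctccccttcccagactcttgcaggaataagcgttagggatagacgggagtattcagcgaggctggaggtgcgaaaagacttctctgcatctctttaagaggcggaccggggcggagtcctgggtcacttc
Trib3: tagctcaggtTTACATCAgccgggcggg

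Values are the authors' normalized log2 expression per gene and embryo, so a difference of 1 is a doubling. Differences (log2 fold changes) are given as withdrawn minus supplied. A gene is called when its adjusted p in limma, a linear model with variances shared across genes, is below 0.05 over the 12432 genes tested. In withdrawn embryos 6.22% of those genes passed as higher and 7.75% as lower. All 9 listed members passed the filter on low values. Called higher were 2 of the 9 (22.2%), Slc3a2 and Slc7a5, and called lower were 0. At an unadjusted p below 0.05 only Trib3 of the 9 was lower, and an exact permutation test per gene called 0 lower. The median log2 fold change of the 9 was 0.00, beside -0.01 over all genes tested. The 2 called genes encode the 2 subunits of a single amino acid transporter, and the transcription factors of the response did not pass.

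**Figure D1:**
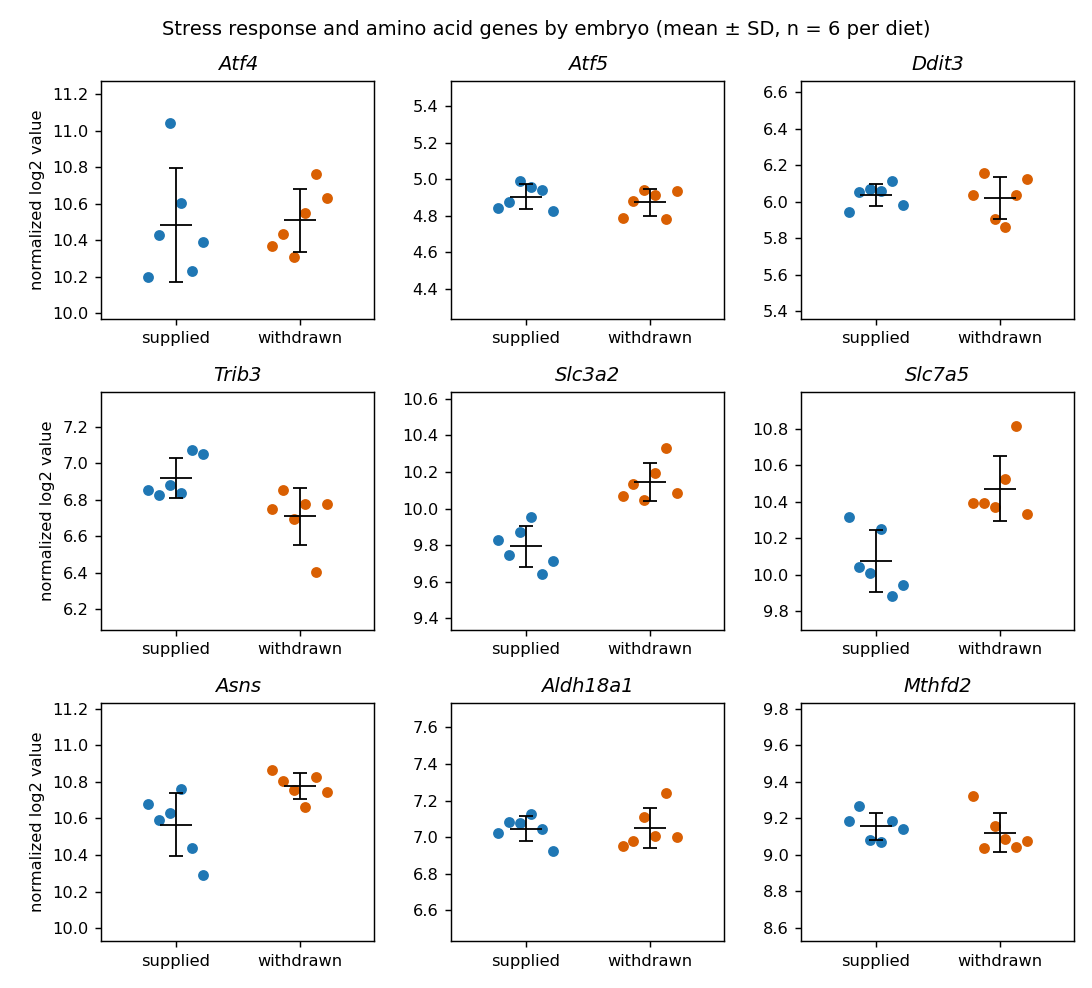
Normalized log2 value (vertical axis, a span of equal height in every panel) of each of the 9 listed genes in each embryo, by diet; dots are embryos, left to right in the order of their replicate number, and bars are mean ± SD, n = 6. For Slc3a2 and Slc7a5 every withdrawn embryo lies above every supplied one, whereas the groups overlap in the other 7 panels.

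The transporter subunits come first. Slc3a2 encodes the heavy chain CD98, a glycoprotein that carries its light chains to the plasma membrane. In supplied embryos its values ran from 9.64 to 9.95 with a median of 9.79. In withdrawn embryos they ran from 10.05 to 10.33 with a median of 10.11. All 6 withdrawn embryos were thus above all 6 supplied ones. The means were 9.79 ± 0.11 and 10.15 ± 0.11 (SD, n = 6 each), a rise of 0.35 (SE 0.07, 95% interval 0.21 to 0.50, adjusted p = 0.00386), or 1.28-fold. By p value Slc3a2 ranked 140 of the 12432 genes.

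Slc7a5 encodes LAT1, the light chain that joins CD98 and exchanges glutamine for leucine and other large neutral amino acids. Its supplied values ran from 9.89 to 10.32 with a median of 10.03, and its withdrawn values from 10.33 to 10.81 with a median of 10.39. The groups again did not overlap, though the lowest withdrawn and the highest supplied embryo were nearly level. Means were 10.08 ± 0.17 and 10.47 ± 0.18 (SD, n = 6 each), a rise of 0.40 (SE 0.09, 95% interval 0.22 to 0.58, adjusted p = 0.00665), or 1.32-fold. By size it was number 104, and Slc3a2 number 169, of the 773 genes called higher. Of the 9 members these 2 (22.2%) had groups that did not overlap, beside 4.49% of all genes tested, 2.15% with withdrawn embryos wholly above and 2.34% wholly below. Because the groups did not overlap, an exact permutation test over embryos had to give both subunits its smallest possible p of 0.00216 (two-sided, adjusted p = 0.0482 over all genes). The next possible p of this test, 0.00433, had an adjusted p of 0.0598 and did not pass. A call by the exact test thus restates that the groups do not overlap, here and below, and is no separate check.

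**Figure D2:**
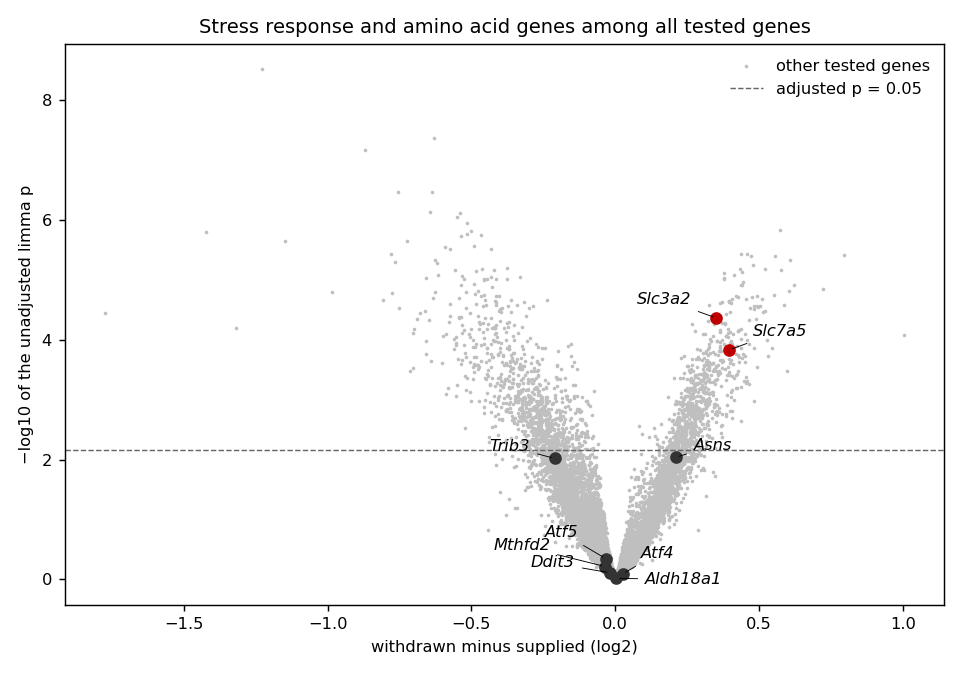
Withdrawn minus supplied log2 difference (horizontal axis) against −log10 of the unadjusted limma p (vertical axis) for the 12432 tested genes, with the listed genes as large dots, red where called. Slc3a2 and Slc7a5 are above the dashed line, Trib3 and Asns just under it on opposite sides, and the other 5 near the origin.

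Both subunits also varied together among embryos of the same diet. After each diet's mean was subtracted, Slc3a2 and Slc7a5 had a Pearson r of 0.85 (permutation p = 0.00205, adjusted 0.0184) and a Spearman rho of 0.85 (permutation p = 0.00199, adjusted 0.0179) over 12 embryos. The p values were adjusted over the 9 relations computed. Within the 6 supplied embryos r was 0.75 and within the 6 withdrawn ones 0.96. Leaving out supplied replicate 5 and withdrawn replicate 5, the embryos farthest from the median of Slc3a2, r was 0.72. Those 2 embryos were the lowest and the highest for both genes. They were also at the 2 ends of the first principal component of all genes, at -18.3 and 23.2, which held 45.5% of the variance. Libraries share depth and other properties across genes, and the part of these in the correlation was not tested. The genes most like Slc3a2 over the 12 diet-centred values were Plekhm1, Trak1 and Rnf40 (r 0.962, 0.962 and 0.959), and those most like Slc7a5 were Ank3, Ywhag and Sh3bp4 (r 0.948, 0.941 and 0.940). Each of these exceeded the r of 0.85 between the subunits, and how many of all genes do so is not given here.

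**Figure D3:**
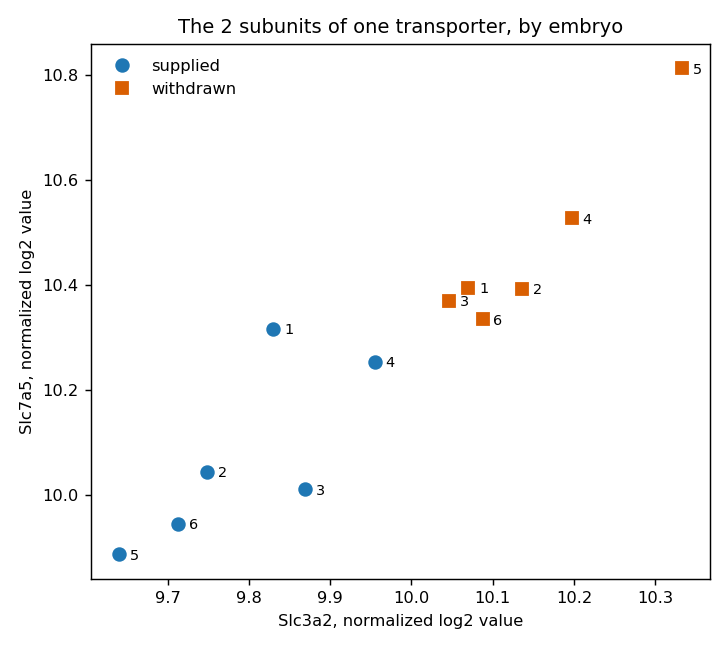
Slc7a5 (vertical axis) against Slc3a2 (horizontal axis), both as normalized log2 values, for the 6 supplied (circles) and 6 withdrawn embryos (squares), numbered by replicate. Within each diet the embryos with more Slc3a2 tend to have more Slc7a5, from supplied replicate 5 at the lower left to withdrawn replicate 5 at the upper right.

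Each embryo's title begins with 1 of 4 numbers, 1 to 4, and the labels do not say what it stands for. Within numbers 1, 2, 3 and 4 the difference for Slc3a2 was 0.31, 0.18, 0.24 and 0.53, and for Slc7a5 it was 0.21, 0.36, 0.27 and 0.66. Each subunit was higher in withdrawn embryos within all 4 numbers, most so within number 4. Since the groups do not overlap, the direction within each number was fixed and adds nothing to that result. Numbers 2 and 3 hold only 1 embryo of each diet. Without the 4 embryos of number 4, Slc3a2 was at 0.26 (adjusted p = 0.103) and Slc7a5 at 0.26 (adjusted p = 0.142), and neither was called among the 8 embryos left. Each was called in all 12 fits that left out a single embryo, with adjusted p up to 0.0129 for Slc3a2 and 0.0220 for Slc7a5.

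**Figure D4:**
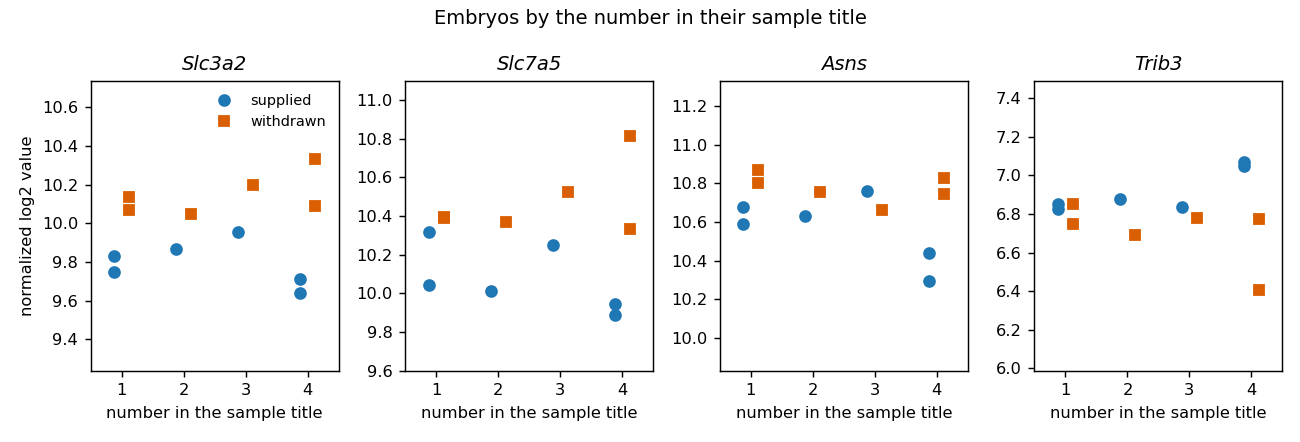
Normalized log2 value (vertical axis) of Slc3a2, Slc7a5, Asns and Trib3 in each embryo, by the number in the sample title (horizontal axis) and by diet (circles supplied, squares withdrawn). The 2 diets are farthest apart at number 4 in each of the 4 genes, and for Asns the order of the diets turns at number 3.

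Some markers of other gonadal cells were lower in withdrawn embryos. The summed level of 6 mesenchymal markers in the table, of 10 listed, was 9.90 to 10.29 (log2 of the sum) in supplied and 9.56 to 9.86 in withdrawn embryos, without overlap. Fbln1 alone made up 69.4% to 79.6% of this sum and was called lower (9.63 and 9.33, adjusted p = 0.0261). The other 5 were not called, and their sum, computed after the values were seen, overlapped (7.65 to 8.27 and 7.64 to 7.85). For all 12 ovarian supporting cell markers it was 9.16 to 9.45 and 9.07 to 9.29. For 6 of 8 endothelial markers it was 7.14 to 7.41 and 7.17 to 7.30, for 6 of 8 macrophage markers 7.30 to 7.58 and 7.19 to 7.45, and for 5 of 7 mesonephric markers 8.82 to 9.001 and 8.75 to 8.96. None of the 7 erythroid markers is among the listed symbols. Foxl2, which defines ovarian supporting cells, had means of 3.74 and 3.68, where the lowest value of the table is 2.82. All 12 supporting cell markers had lower means in withdrawn embryos, with Irx3 the most abundant (7.47 and 7.35, adjusted p = 0.227), and 2 were called, Kitl (6.43 and 6.11, adjusted p = 0.0246) and Emx2 (5.601 and 5.418, adjusted p = 0.0303). All 10 germ cell markers were present, with a summed level of 15.26 to 15.44 and 15.29 to 15.41, but single markers moved in opposite directions. Called higher were 5, Dppa5a (0.49), Pou5f1 (0.45), which encodes Oct4, Tfap2c (0.39), Alpl (0.30) and Dppa3 (0.23), and called lower were 3, Mael (-0.77), Dazl (-0.43) and Ddx4 (-0.34), with adjusted p from 0.00209 to 0.0362. The part of these shifts in the values of the members was not tested. With the mean of the somatic markers as a covariate, Slc3a2 was at 0.34 (adjusted p = 0.108) and Slc7a5 at 0.32 (adjusted p = 0.164), and the fit called 1 gene in all. In RNA from pooled sorted cells, fewer cells of a type and less RNA per cell cannot be told apart.

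The transcription factors of the response showed no call. Atf4, its central activator, had values from 10.20 to 11.04 (median 10.41) in supplied and from 10.31 to 10.76 (median 10.49) in withdrawn embryos. Supplied replicate 3 held the highest value of all 12. The mean difference was 0.03 (SE 0.11, 95% interval -0.20 to 0.26, adjusted p = 0.903). Its sign turned in 8 of 27 alternative fits, and the interval holds a change as large as the 0.21 of Asns given below. Within single title numbers the difference ran from -0.73 at number 2 to 0.38 at number 4.

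Atf5, a relative of Atf4 with a like mode of translation, is linked to mitochondrial protein stress. It had values from 4.82 to 4.99 (median 4.91) in supplied and from 4.78 to 4.94 (median 4.90) in withdrawn embryos, which overlap almost fully. Its mean difference was -0.03 (95% interval -0.12 to 0.05, adjusted p = 0.648). At values between 4 and 5 the median SD within a diet was 0.06, beside 0.12 between 10 and 11, so a change of such a gene may be understated on this scale. Ddit3 encodes CHOP, the factor tied to cell death under lasting stress. It ran from 5.94 to 6.11 (median 6.06) and from 5.86 to 6.16 (median 6.03), with a difference of -0.02 (95% interval -0.14 to 0.10, adjusted p = 0.881).

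Trib3, a pseudokinase that Atf4 and CHOP induce and that holds Atf4 back, was the lowest of the 9 in its difference. Supplied values ran from 6.83 to 7.07 (median 6.86) and withdrawn values from 6.41 to 6.85 (median 6.76). The groups overlapped, but all 6 withdrawn embryos were below the supplied mean. Means were 6.92 ± 0.11 and 6.71 ± 0.16 (SD, n = 6 each), a difference of -0.21 (SE 0.07, adjusted p = 0.0602), which did not pass. The 2 supplied embryos of title number 4 were the highest of the supplied group, and withdrawn replicate 5, of the same number, was the lowest of all 12. Without number 4 the difference was -0.08 (adjusted p = 0.567). Trib3 was called without supplied replicate 4 (adjusted p = 0.0452) and without withdrawn replicate 2 (adjusted p = 0.0486). Over all genes these 2 fits called 2315 and 1457, beside 1737 with all embryos.

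Among the enzymes, Asns, which makes asparagine from aspartate and glutamine, came nearest to a call. It ran from 10.29 to 10.76 (median 10.61) in supplied and from 10.66 to 10.87 (median 10.78) in withdrawn embryos. All 6 withdrawn embryos were above the supplied mean, and the supplied values were the more spread. The means were 10.57 ± 0.17 and 10.78 ± 0.07 (SD, n = 6 each), a difference of 0.21 (SE 0.07, 95% interval 0.06 to 0.36, adjusted p = 0.0589). Within title numbers it was 0.20, 0.13, -0.10 and 0.42, so number 3 went the other way. Asns was called in 5 of 27 alternative fits, among them those without supplied replicate 4 (0.25, adjusted p = 0.0211) and with title number as a replicate block (0.21, adjusted p = 0.0437). Without number 4 it was at 0.11 (adjusted p = 0.479).

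Mthfd2 encodes a mitochondrial enzyme of the folate cycle and Aldh18a1 the enzyme that begins proline synthesis from glutamate. Mthfd2 ran from 9.07 to 9.27 (median 9.16) in supplied and from 9.03 to 9.32 (median 9.08) in withdrawn embryos, with a difference of -0.03 (95% interval -0.17 to 0.10, adjusted p = 0.773). Aldh18a1 ran from 6.92 to 7.13 (median 7.06) and from 6.95 to 7.24 (median 7.003), with a difference of 0.00 (95% interval -0.13 to 0.14, adjusted p = 0.981). The withdrawn values spanned the supplied ones almost wholly in both genes. For these 2 genes and for Atf4, Atf5 and Ddit3 the upper bound lies below the rise of either transporter subunit. The upper bound of Atf4, 0.26, still lies above the lower bounds of Slc3a2 and Slc7a5, 0.21 and 0.22.

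Atf4 did not vary clearly with the other members among embryos. Over the 12 diet-centred values its strongest relations were with Slc3a2 (Pearson r 0.63, permutation p = 0.0369, adjusted 0.138; Spearman rho 0.68, permutation p = 0.0263, adjusted 0.108) and with Mthfd2 (Pearson r -0.55, permutation p = 0.0460, adjusted 0.138; Spearman rho -0.64, permutation p = 0.0360, adjusted 0.108). Neither passed the adjustment over the 9 relations. Without supplied replicate 3 and withdrawn replicate 5, the embryos farthest from the median of Atf4, r was 0.53 and -0.48. With Slc7a5 Atf4 had an r of 0.20 (permutation p = 0.572, adjusted 0.588; Spearman rho 0.29, permutation p = 0.395, adjusted 0.460), and 0.08 without those 2 embryos. The genes most like Atf4 were Snhg5, a host gene of small nucleolar RNAs, Tulp3 and the unnamed B230217C12Rik (r 0.946, 0.944 and 0.937).

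Around these members, 8 lists hold 147 further genes of the pathway, of which 137 were in the table and tested. They held 17 genes called higher and 6 called lower, or 16.8% called, beside 14.0% of all genes tested. By direction, 6.22% of all genes tested were called higher and 7.75% lower, the shares to set beside each list below. Of those 23 genes, all kept their direction without title number 4 and with the somatic covariate, and none was called in either of these limma fits. With the random effect for embryos alike in diet and title number, which may be litter mates, 12 of the 17 and 3 of the 6 were still called, with such embryos averaged 5 and 1, and by the exact test per gene 8 and 3. Since the exact test calls only genes whose groups do not overlap, its 8 and 3 count those genes. Where a list below has 0 genes called lower by limma, the exact test per gene also called 0, and at an unadjusted p below 0.05 1 gene each was lower among the eIF2 factors, Atf4 targets and enzymes and 0 among the tRNA synthetases. In the list of the endoplasmic reticulum 0 were called higher by either test and 3 were higher at an unadjusted p below 0.05. Over all genes limma called 1737 with all embryos, 886 with the random effect and 298 with averaging. Without 1 embryo it called from 808 (supplied replicate 5) to 2315 (supplied replicate 4). The list counts of these fits below belong beside those totals, and how far they follow them was not tested.

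**Figure D5:**
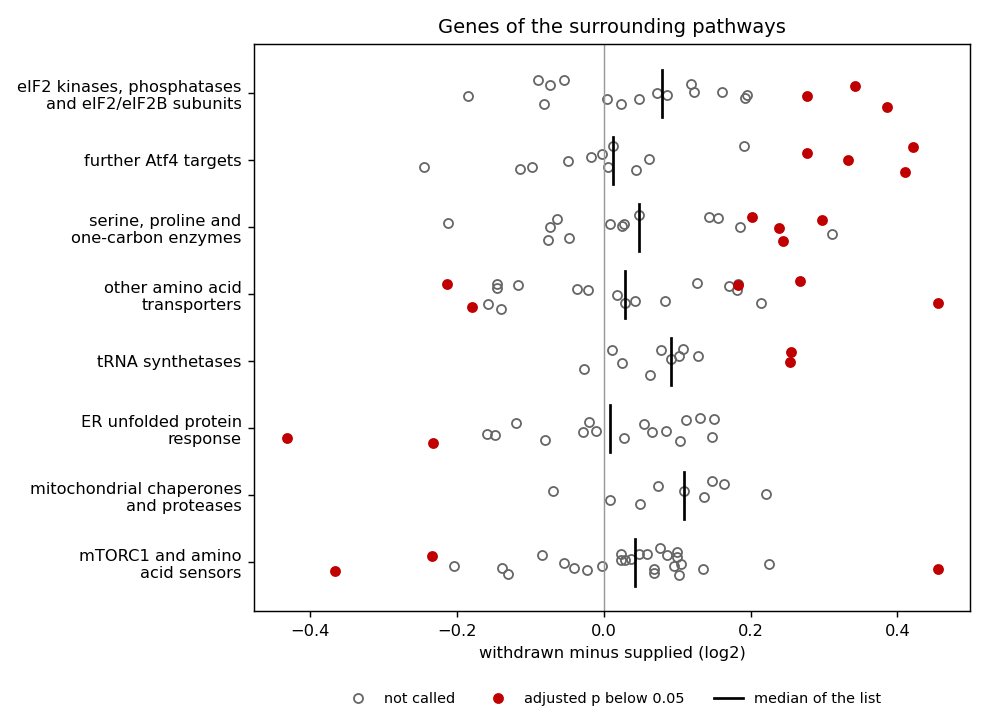
Withdrawn minus supplied log2 difference (horizontal axis) of each tested gene of the 8 lists (1 row per list), filled red where the adjusted limma p was below 0.05, with the list's median as a vertical bar. Medians lie between 0.01 and 0.11, and called genes are higher in the lists of eIF2 factors, Atf4 targets, enzymes and tRNA synthetases and lower in that of the endoplasmic reticulum.

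In the list of eIF2 factors, 3 of 18 genes were higher and 0 lower, with a list median of 0.08. It holds genes that start or end the response, and also the subunits of eIF2 and of eIF2B. Eif2s2 (0.39, SE 0.08, adjusted p = 0.00353) and Eif2s3x (0.34, SE 0.08, adjusted p = 0.00829) encode the beta and gamma subunits of eIF2. Eif2s3x has a near-identical Y-linked copy, which these female embryos lack. How reads from Eif2s3x were assigned between the reference sequences of these copies is not known. Ppp1r15b (0.28, SE 0.07, adjusted p = 0.0106) encodes the constitutive phosphatase partner that removes the phosphate from eIF2. Eif2b2, a subunit of the exchange factor eIF2B, was at 0.19 (adjusted p = 0.0909). The 4 kinases Eif2ak1, Eif2ak2, Eif2ak3 and Eif2ak4, named after their values were seen, lay between -0.09 and 0.07 and were called in 0 of 27 alternatives. The inducible phosphatase subunit Ppp1r15a, also named afterwards, was at 0.02 (adjusted p = 0.902).

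Of 15 further Atf4 targets and partners, 4 were higher and 0 lower, with a median of 0.01. Eif4ebp1, which holds back cap-dependent translation, rose by 0.42 (SE 0.09, adjusted p = 0.00721) and Gadd45a, a gene of growth arrest and repair, by 0.41 (SE 0.09, adjusted p = 0.00505). The autophagy receptor gene Sqstm1 rose by 0.33 (adjusted p = 0.00577) and Sesn2, a leucine sensor, by 0.28 (adjusted p = 0.0137). With embryos averaged 1 of the list was called, and by the exact test 2. Genes of this list can have regulators other than Atf4, and what moved these 4 was not tested. Atf3, Nupr1, Stc2, Fgf21 and Gdf15 are not among the listed symbols. Cebpb, Cebpg, Ddit4 and Cth, named after their values were seen, lay between -0.11 and 0.01 with adjusted p from 0.322 to 0.973.

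Among 17 enzymes of serine, proline and one-carbon metabolism, 4 were higher and 0 lower, with a median of 0.05. They were Oat, the ornithine aminotransferase (0.30, adjusted p = 0.0102), the cytosolic folate enzymes Mthfd1 (0.24, adjusted p = 0.0371) and Shmt1 (0.24, adjusted p = 0.0402), and the proline synthesis gene Pycrl (0.20, adjusted p = 0.0491). Limma called 1 enzyme higher without supplied replicate 5 or 6, or without withdrawn replicate 2, 4, 5 or 6. The exact test per gene called 0 of the 17 higher, since no enzyme had groups without overlap (Oat adjusted p = 0.0598 by that test). Oat was the 1 enzyme still called with a random effect shared by embryos alike in diet and title number, or with such embryos averaged. Limma called 2 without supplied replicate 1 or 3, and without supplied replicate 4 it called 1 enzyme lower. The serine synthesis genes Phgdh, Psat1 and Psph and mitochondrial Shmt2, named after their values were seen, lay between -0.06 and 0.05 and were called in 0 of 27 alternatives.

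Other amino acid transporters went both ways, with 3 of 21 higher and 2 lower and a median of 0.03. Slc6a6, which takes up taurine, rose by 0.46 (adjusted p = 0.0109), Slc43a1, a carrier of branched chain amino acids, by 0.27 (adjusted p = 0.00867), and Slc1a5, the glutamine carrier whose import feeds the exchange by LAT1, by 0.18 (adjusted p = 0.0162). The cationic amino acid transporter Slc7a2 fell by 0.21 (adjusted p = 0.0134). The glycine transporter Slc6a9, outside the rule for named genes, fell by 0.18 (adjusted p = 0.0327). Without supplied replicate 3 or 5, or withdrawn replicate 4, 5 or 6, 1 transporter was called lower. Without supplied replicate 4, limma called 5 transporters higher, in a fit that called 2315 of all genes, beside 1737 with all embryos. With embryos of like diet and title number averaged it called 0 in either direction, and with the random effect 3 higher and 1 lower. The other light chains of Slc3a2 in the table, Slc7a6, Slc7a7 and Slc7a8, were named after their values were seen. They lay between 0.02 and 0.13 (adjusted p from 0.128 to 0.858), and 1 of 27 alternatives called any of them. Slc7a11 is not among the listed symbols.

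Of 11 tRNA synthetases, 2 were higher, Aars (0.25, adjusted p = 0.0224) and Sars (0.25, adjusted p = 0.0278), which charge the tRNAs for alanine and serine, and 0 were lower. The list median was 0.09. Wars was at 0.13 (adjusted p = 0.271) and Nars at 0.11 (adjusted p = 0.299). None of the 11 was called with the random effect (adjusted p = 0.0624 for Aars and 0.0656 for Sars), with averaging, or without supplied replicate 5 or 6, and 1 was called without supplied replicate 3 or withdrawn replicate 4, 5 or 6.

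The branch of the endoplasmic reticulum outside Atf4 had 0 of 18 genes higher and 2 lower, with a median of 0.01. Over all genes tested 6.22% were higher and 7.75% lower. Ern1, which encodes the stress sensor IRE1, fell by 0.43 (SE 0.09, adjusted p = 0.00385). Every withdrawn embryo was below every supplied one, as in 2.34% of all genes tested and in Slc7a2 and Sesn3 of the other lists. The cochaperone gene Dnajb11 fell by 0.23 (adjusted p = 0.0297). Hsp90b1 was at 0.15 (adjusted p = 0.0777) and Xbp1, whose mRNA IRE1 splices, at -0.16 (adjusted p = 0.0782). Without supplied replicate 5 or 6, or withdrawn replicate 2, 4 or 6, 1 gene of this list was called lower, and without supplied replicate 1, 1 was called higher. With the random effect or averaging, 1 was called lower. Of 9 mitochondrial chaperones and proteases linked to Atf5, limma called 0, the exact test per gene called 0, and 3 had an unadjusted p below 0.05, all of them higher. Their median was 0.11, with Hspa9 at 0.16 (adjusted p = 0.0639), Yme1l1 at 0.22 (adjusted p = 0.0683), Trap1 at 0.15 (adjusted p = 0.127) and Hspe1 at 0.14 (adjusted p = 0.182). Without supplied replicate 1, 2 of the 9 were called higher.

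Leucine and arginine brought in by such carriers are sensed by proteins that act on mTORC1, the kinase complex that drives growth. Of its 28 genes, 1 was higher and 2 were lower, with a median of 0.04, beside 6.22% higher and 7.75% lower over all genes tested. Gatsl3, the arginine sensor also known as Castor1, rose by 0.45 (SE 0.08, adjusted p = 0.00304). Sesn3, a relative of Sesn2, fell by 0.37 (adjusted p = 0.0175), and Tsc1, which restrains mTORC1, by 0.23 (adjusted p = 0.0283). Rragc was at 0.22 (adjusted p = 0.0566). Without supplied replicate 5, 0 genes of this list were lower, and without supplied replicate 3 or withdrawn replicate 4, 5 or 6, 1 was. Without supplied replicate 3 or 4, 2 were higher. With the random effect 1 was lower, and with averaging 0.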

How the data were processed

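The authors deposited normalized log2 expression values per gene symbol for 12 embryos. DESeq2 1.10.1, TopHat2 2.0.13, FastQC and Trim Galore 0.4.0 and the build mm9 are named, without role or order, per the submitters' processing notes. Not given in the sources used here are the counter, annotation, strand setting and exact transformation; library depth is unknown. Members and lists were chosen with earlier results of these data known.

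Genes with a mean of at least log2 of 10 were kept (12432 of 12516). Diets were compared over all 12 embryos with limma 3.58.1 in R 4.3.3 (moderated variances with a trend, two-sided, Benjamini-Hochberg over all genes kept, threshold 0.05). The fit was tested on simulated data. Embryos count as independent, and if some are litter mates p values are too small. Named are all members and up to 4 genes per list with the smallest p. Correlations used 100000 permutations within diet; 10 were planned, but Chac1 has no values. Alternatives changed filter, scaling, variance model, weights and test, tied (statmod 1.5.0), averaged or blocked embryos by title number, added a somatic covariate or left out embryos. Older symbols were matched through RefSeq synonyms. Promoters came from RefSeq (GRCm38.p6), used for sequence alone.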

Additional observations from a re-analysis of the deposited data

Results flagged for a closer look

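Trib3 in withdrawn replicate 5 was at 6.41, set apart from the other 5 withdrawn embryos by a gap of more than 0.625 of the group's range, the 95% critical value for 6 values. Of 18 groups looked at, 1 was flagged, where chance flags about 1 in 20. Without this embryo Trib3 was at -0.15 (adjusted p = 0.122), beside -0.21 (adjusted p = 0.0602) with it.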

How the results depend on the processing

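Slc3a2 and Slc7a5 kept their direction in all 27 alternatives and were called in 25 of them each, with log2 fold changes from 0.26 to 0.39 and from 0.26 to 0.49. The exact test, counted in the 25, had to call them because their groups do not overlap. The other 2 alternatives, the somatic covariate and leaving out title number 4, called 0 members in either direction. Leaving out 1 embryo gave 2 to 4 members called, 2 to 3 of them higher and 0 to 1 lower, with 4 called without supplied replicate 4, where Trib3 was lower and Asns higher, and Trib3 lower without withdrawn replicate 2. Over all genes 1737 were called, and 808 to 2315 without 1 embryo (808 without supplied replicate 5 and 1133 without supplied replicate 6). The count was 886 with a random effect shared by embryos alike in diet and title number, 298 with them averaged, 558 by the exact test per gene, 729 without title number 1, 49 without title number 4 and 1 with the somatic covariate. The 558 are the genes whose groups do not overlap. With title number as a replicate block it was 2062 and Asns was also called; the block changed no other call of a member. Same-numbered embryos of the 2 diets did not deviate together throughout. Correlations over genes were 0.31, -0.04, 0.21 and -0.22 for numbers 1 to 4, and 1 of 4 numbers correlated best with its own. Numbers 2 and 3 rest on 1 embryo per diet, so these values cannot decide whether the number pairs embryos.

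Small differences changed sign. Atf4 was at -0.0083 with quantile normalization, -0.0085 with the random effect, -0.079 with averaging, -0.0047 without title number 1 and -0.15 without number 4, and at -0.031 to 0.14 without 1 embryo. Ddit3 was at 0.00041 with median centring, 0.025 with quantile normalization, 0.0076 with array weights, 0.013 without title number 2 and 0.019 without number 3, and at -0.044 to 0.015 without 1 embryo. Aldh18a1 was at -0.029 with array weights, -0.00078 with the random effect, -0.0083 with averaging, -0.0037 without title number 2 and -0.063 without number 4, and at -0.035 to 0.022 without 1 embryo. Atf5 was at 0.026 with the somatic covariate, and Mthfd2 at 0.00050 without title number 4. The cause was not tested. Fits without a title number rest on fewer embryos. The stricter filter drops Atf5. No pseudocount was varied, since the values are on a log scale, and depth is unknown.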
